A study of Bos taurus with 2 samples.

Results

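Scavenger receptors are cell-surface and lysosomal membrane proteins that bind modified lipoproteins, dying cells, microbes and iron-loaded ferritin. The genes described here were SCARA3 and 8 other scavenger receptor genes, SCARA5, MSR1, MARCO, COLEC12, CD36, SCARB1, SCARB2 and SCARF1. They were measured on 2 one-colour Agilent bovine arrays, which carry 60-base probes and 31909 gene names. Their probes were those whose gene name on the array is one of these symbols, and 8 of the 9 genes had such a probe. These made 17 of the 51280 probes. A further 6 probes, found by a shared transcript accession or by their description, are given beside them, so that SCARF1 is included by description and accession alone. SCARA3 was chosen because its difference between the arrays was already known, so that difference is described here and supports nothing by itself.

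The high-fertile group was 1 array of total RNA from the spermatozoa of HF crossbred breeding bulls of high fertility. The low-fertile group was 1 array of the same kind from bulls of low fertility. All were male, no treatment is named, and how many bulls stand behind each array, whether they were pooled, their ages and how fertility was scored are not given in the sources used here. With 1 array per group there are no replicates, so no test between the groups was possible, and each difference is between these 2 arrays.

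Most class A receptors carry a collagen-like stalk. In this class MSR1 and MARCO serve macrophages in the uptake of modified lipoprotein and of bacteria, SCARA5 takes up ferritin, COLEC12 is a collectin of vascular cells, and SCARA3 is known for its induction by oxidative stress. Class B receptors span the membrane at both ends: CD36 binds fatty acids and oxidised lipoprotein, SCARB1 is the receptor for high-density lipoprotein, and SCARB2 carries glucocerebrosidase to lysosomes. In the testis, Sertoli cells clear dying germ cells and residual bodies in part through SCARB1. Mature sperm are nearly silent in transcription, so their RNA is largely left over from spermatids.

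Of the SCARA3 probes, 1 was bright, and it holds a simple repeat. The 3 SCARA3 probes are shown so that this repeat can be seen, each as bases 31 to 60 of its 60 bases, 5′ to 3′, named by the first transcript base it covers. Capitals mark the longest stretch in which C and A alternate, where it has 8 bases or more.
SCARA3 base 1973: cacaaACACACACACACACACACACACACA
SCARA3 base 3096: gatatcgtgccacctagtatcacccactca
SCARA3 base 2653: cctggggtgacctttttgtggtgacagggg
The run in the first probe is 25 bases long, and a stop codon stood in all 3 forward frames of its 60 bases. The other probes of measured receptors, and the description-matched SCARF1 probe, have no such run. Their bases 31 to 60 are given for comparison.
SCARA5 base 1931: gtgacctgtcaccctcctcctcttggacat
SCARA5 base 520: tcatcttagcagtgtccaggccccggagct
SCARB1 base 2480: gaagaaaaactgaatatcatcttttaaaaa
SCARF1 base 913: tttattccttcagcagacgtgtagcaggca
Over the other 22 probes of these receptors, the longest CA run was 5 bases.

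Signals are Agilent processed signals on a linear scale. A probe counts as well above background where the scanner software flags more than 50% of its spots so, and as measured where that holds on both arrays. Differences are log2 values, high-fertile minus low-fertile, after each array was scaled by the 75th percentile of its measured probes, which was 148.5 on the high-fertile array and 186.3 on the low-fertile one. Equal raw signals therefore correspond to a scaled difference of 0.33. Scaling on the array's spike-in probes instead moves the median of all genes from 0.00 to -0.63 and every difference with it, so small positive differences given below turn negative under that scaling, while SCARA3 stays positive at 1.103. In all, 14155 probes and 11620 genes were measured, and the 2 spots of a probe printed in duplicate differed with an SD of 0.28 in their log2 differences (3038 probes). The 308 negative control spots had a median signal of 4.89 on the high-fertile array and 6.67 on the low-fertile one, and no non-control spot was saturated.

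Of the 17 receptor probes, 4 (23.5%) were measured, beside 27.6% of all probes, 2 were above background on the high-fertile array only, 0 on the low-fertile array only and 11 on neither. Over all probes, 31.7% were above background on the high-fertile array and 31.5% on the other. The measured genes were SCARA3, SCARA5 and SCARB1. MSR1 was above background on the high-fertile array only, and MARCO, COLEC12, CD36 and SCARB2 were above background on neither. Of the 3 measured genes, SCARA3 was at least 2-fold higher on the high-fertile array, as were 1.88% of all measured genes, and 0 were at least 2-fold lower, beside 2.44%. Nothing is read from that count, since SCARA3 was picked on this contrast.

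**Figure D1:**
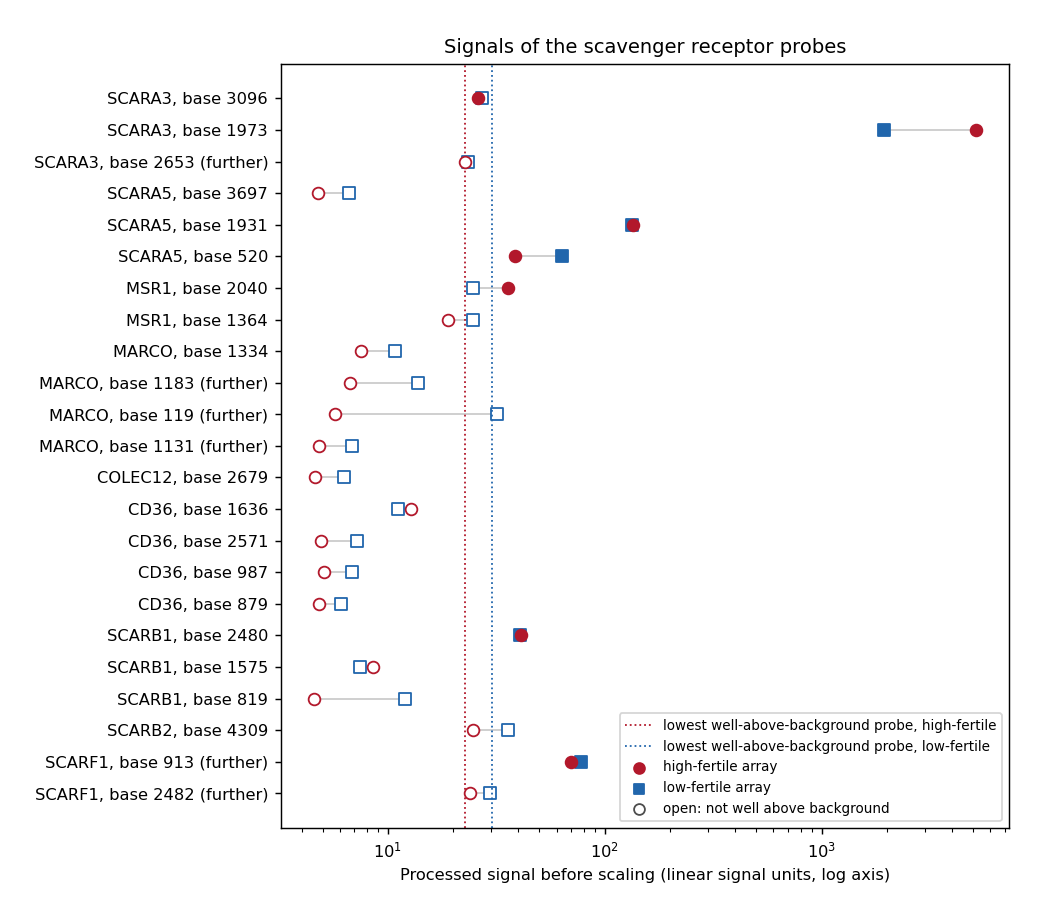
Processed signal before scaling (linear units, log axis) of each scavenger receptor probe on the high-fertile (red circles) and low-fertile (blue squares) arrays, named by its first transcript base. Filled symbols are well above background, open ones are not, dotted lines mark the dimmest probe called well above background on each array, and "further" marks probes found by accession or description. The SCARA3 probe at base 1973, at 5139 and 1939, lies far to the right of all others.

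The SCARA3 gene lies on chromosome 8, minus strand, and its array positions are on build HGSC Btau_3.1. The probe at transcript base 1973 (chr8:11219725-11219784) gave 5139 on the high-fertile array and 1939 on the low-fertile one. Both spots were far above background, and the high-fertile one was the brighter. The scaled difference was 1.73, or 3.33-fold, with an error of 0.20 from the errors of 514 and 194 that the scanner software gives for these signals. This is 1 spot on each array, and the error covers the reading of the spots, not bulls or hybridisations. Of the 8 spots around it, 0 were at least 2-fold different the same way, and their median difference was -0.14.

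The other SCARA3 probes were too dim to count as measured. The probe at base 3096 (chr8:11218671-11218730), which holds a CA run of only 3 bases, gave 26.1 on the high-fertile array and 27.03 on the low-fertile one. It was well above background on the high-fertile array only, which bounds the scaled difference at no less than 1.08-fold higher. A bound of this kind sets the bright signal, after scaling, against the dimmest probe called above background on the other array. The probe's own signal there is used instead where that is higher. Reading errors are not part of the bound. As read, the scaled difference of the probe at base 3096 was 0.28 with a reading error of 0.49. The third SCARA3 probe, named only by an accession and starting at base 2653, lies in 2 spots, which gave 24.6 and 20.7 on the high-fertile array and 18.4 and 29.7 on the low-fertile one. Only 1 of these 4 readings, on the high-fertile array, was above background. As read, the scaled differences of these 2 spots were 0.75 and -0.19, with reading errors of 0.61 and 0.59. The differences read from both dim probes lay below the 1.73 of the repeat probe. Neither dim probe sets an upper limit on the fold, since the low-fertile signals were not well above background. No measured probe of SCARA3 lacks the repeat, so the gene's 3.33-fold value rests on the repeat probe alone.

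SCARA5, the ferritin receptor, lies near SCARA3 on chromosome 8, on the plus strand, and had 2 of 3 probes measured. Its probe at base 1931 (chr8:11021616-11021675) gave 135.6 on the high-fertile array and 133.0 on the low-fertile one, a scaled difference of 0.35 with a reading error of 0.22. The probe at base 520 (chr8:10917424-10962038) covers 44615 genomic bases with 60, so it crosses an intron. It gave 38.7 and 63.6, a difference of -0.39 with a reading error of 0.31. The probe at base 3697 (chr8:11023382-11023441) was not above background, at 4.76 and 6.65. The measured probes lay on opposite sides of 0, and SCARA5 came to -0.02 with an SD of 0.52 over its 2 probes.

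MSR1, the macrophage receptor for modified lipoprotein, lies on chromosome 27. Its probe at base 2040 (chr27:22902421-22902480) gave 35.8 on the high-fertile array and 24.7, not well above background, on the low-fertile array. Its bound was 1.48-fold higher on the high-fertile array, leaving out reading errors. As read, the scaled difference was 0.86 with a reading error of 0.52. Its probe at base 1364 (chr27:22940613-22940672) is printed in 2 spots, with 13.4 and 26.7 on the high-fertile array and 18.9 and 32.5 on the low-fertile one. Only the brighter high-fertile spot was above background, and the scaled difference of this probe as read was -0.06. The MSR1 probes thus do not give one measured value between them.

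MARCO and COLEC12 were not well above background in any probe on either array. The MARCO probe (chr2:74162047-74162105) gave 7.49 on the high-fertile array and 10.8 on the low-fertile one. Of the 3 further MARCO probes, signals ran from 4.83 to 6.70 on the high-fertile array and from 6.84 to 31.9 on the low-fertile one, with none well above background. The COLEC12 probe (chr24:36373451-36373510) gave 4.62 and 6.25. No direction can be given for either gene.

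Of the class B receptors, SCARB1 alone was measured, by 1 of 3 probes. That probe, at base 2480 (chr17:53861442-53861501), gave 41.0 on the high-fertile array and 40.7 on the low-fertile one. The scaled difference of 0.34, or 1.27-fold, was smaller than its reading error of 0.35. Of the spots around it, 2 of 8 were at least 2-fold higher, with a median of 0.53, and with each spot set against its surroundings SCARB1 stood at -0.19. The other SCARB1 probes gave 8.51 and 4.56 on the high-fertile array and 7.47 and 11.98 on the low-fertile one and were not above background.

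CD36 and SCARB2 were not measured. The CD36 probes, 4 in all, gave signals of 4.82 to 12.8 on the high-fertile array and 6.07 to 11.1 on the low-fertile one, and none was above background on either. Of these, 2 probes on chromosome 4 carry a transcript that the RefSeq table (assembly ARS-UCD2.0) assigns to LOC518526, so their gene is uncertain. The SCARB2 probe (chr6:94258656-94258715) is printed in 2 spots, which gave 35.4 and 17.4 on the high-fertile array and 46.3 and 27.5 on the low-fertile one. The brighter spot was above background on both arrays and the dimmer on neither.

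SCARF1, a class F receptor of endothelial and phagocytic cells, was reached through further probes only. The probe matched by description (chr19:22830735-22830794) was above background in both spots on both arrays. Its spots gave 76.1 and 64.7 on the high-fertile array and 74.8 and 80.8 on the low-fertile one. The scaled differences of its spots were 0.35 and 0.01, with a mean of 0.18. The probe matched by accession (chr19:22829311-22829370) was not above background, at 23.95 and 29.5. No receptor probe other than the repeat probe of SCARA3 reached a 2-fold difference with both signals above background.

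The alternating CA run of the bright SCARA3 probe was then looked up in every probe of the array, a choice made after these values were seen. Only 12 of 51280 probes (0.0234%) hold a run of 12 bases or more, and the run of SCARA3 is the longest, the next being 18 bases. Stretches of 30 bases from 5 of these probes are shown to set beside SCARA3, with the run in capitals.
DUSP7 bases 1 to 30: ttcCACACACACACACACACAtatatatat
MTTP bases 31 to 60: acttgtccataaaACACACACACACACACA
KCNN3 bases 31 to 60: aagcgtgtgcatgCACACACACACACACAC
CDH12 bases 31 to 60: cacatgcacgcatACACACACACACACACg
SCGB2A2 bases 24 to 53: agaggcagACACACACACACAttatgatca
These genes have unlike functions: DUSP7 is a phosphatase of MAP kinases, MTTP loads lipid onto apolipoprotein B, KCNN3 is a calcium-activated potassium channel, CDH12 a cadherin and SCGB2A2 a secretoglobin.

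Of the 12 probes, 11 were measured. SCARA3 is among the 11 and was picked on this contrast, so its own place in the count was known beforehand. Each of the other 10 was at least 2-fold higher on the high-fertile array, beside 2.15% of all measured probes. Of them, 0 were 2-fold lower, beside 2.78%. The differences of all 11 ran from 1.26 to 2.10 with a median of 1.73 and an SD of 0.28. SCARA3 was the sixth from the top of the 11, and the median of the other 10 was also 1.73. DUSP7 gave 8686 and 2537, a difference of 2.10. SCGB2A2 gave 787 and 250 (1.98), MTTP 244 and 108 (1.498), and CDH12 368 and 174 (1.41), high-fertile first. KCNN3 gave 58.2 and 15.9 and was not well above background on the low-fertile array, which makes it at least 2.41-fold higher. A probe with a 12-base run and no gene symbol was printed in 2 spots, with differences of 1.98 and 2.204. The difference of SCARA3 thus lay within the range of the probes that share its repeat.

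The share of higher probes went up with the length of the run. Among measured probes with a longest CA run of 1 to 5 bases, 1.90% were at least 2-fold higher (263 of 13836). The share was 5.04% for runs of 6 to 7 bases (13 of 258), 26.3% for 8 to 9 (10 of 38), 58.3% for 10 to 11 (7 of 12) and 100% for 12 to 25 (11 of 11). The medians were -0.01, 0.04, 0.30, 1.17 and 1.73 in the same order. The last 2 bins hold few probes, and the last one includes SCARA3, whose difference was known beforehand. Probes of one kind share their sequence and each array its hybridisation, so these are not independent measurements, and no test was made. SCARA5 and SCARB1, whose measured probes have CA runs of 2 or 3 bases, belong to the first bin.

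**Figure D2:**
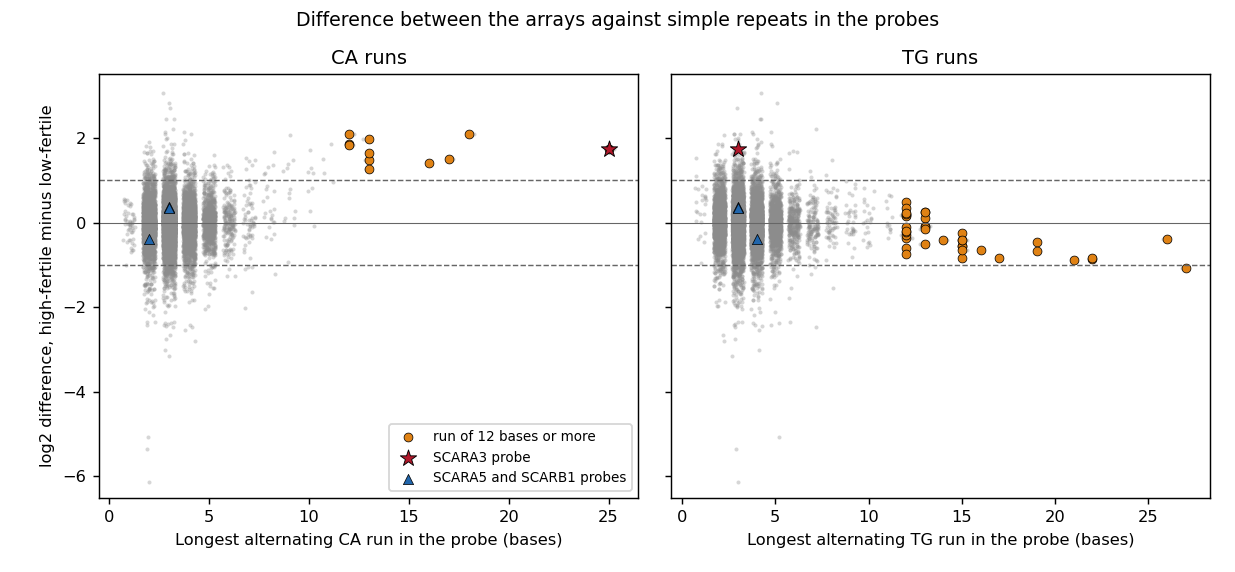
Log2 difference, high-fertile minus low-fertile, of each of the 14155 measured probes against the longest alternating CA run (left) and TG run (right) in its sequence, in bases; dashed lines mark 2-fold. On the left all 11 probes with runs of 12 bases or more (orange), SCARA3 (star) among them, lie above the upper line. On the right 28 of the 37 such probes lie below 0, and 1 of them lies below the lower line.

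Other measured probes of the same genes, which lack the long run, did not show the difference. The 12 genes had 15 other probes, of which 8, in 5 genes, were measured. Those 8 ran from -0.75 to 0.40, and 0 were at least 2-fold higher. In DUSP7 the probe without the run stood at 0.13 and in YARS2 at -0.11. The other probes stood at -0.75 and 0.35 in MTTP, at -0.03 and -0.26 in NCAN, and at -0.25 and 0.40 in KCNN3. SCARA3, SCGB2A2 and CDH12 have no other measured probe, so this comparison cannot be made within them. The part of the repeat in the difference of SCARA3 was not tested.

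**Figure D3:**
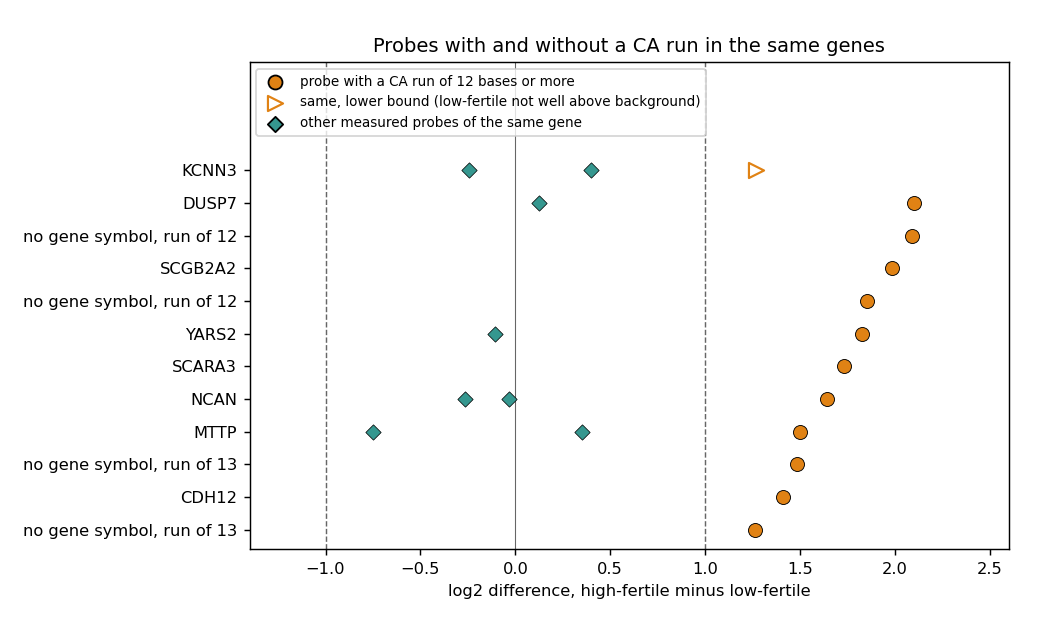
Log2 difference, high-fertile minus low-fertile, of the 12 probes with a CA run of 12 bases or more (orange; the open triangle of KCNN3 is a lower bound) and of the other measured probes of the same genes (green diamonds). The 11 measured orange points lie between 1.26 and 2.10, right of the 2-fold line, and all 8 diamonds lie between -0.75 and 0.40.

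The reverse complement of a CA run, a run of alternating TG, did not go the same way. The longest such run on the array and that in the leukocyte phosphatase PTPRC are shown, with the run in capitals.
S1PR2 bases 23 to 52: cTGTGTGTGTGTGTGTGTGTGTGTGTGTaa
PTPRC bases 31 to 60: tagtcttTGTGTGTGTGTGTGTGTGTGTGa
A TG run of 12 bases or more was found in 37 probes (0.0722%), all 37 of them measured, of which 28 were lower and 9 higher on the high-fertile array. Their median was -0.40 and their range -1.08 to 0.48, beside a median of -0.005 over all measured probes. Only 1 of the 37 was at least 2-fold lower, beside 2.78% of all measured probes. At least 2-fold higher were 0, beside 2.15%. Measured probes with TG runs of 8 to 9 and of 10 to 11 bases had medians of 0.02 each. The 5 with runs of 20 bases or more ran from -1.08 (S1PR2) to -0.40, and all 5 were lower. None of the receptor probes has a TG run over 7 bases. In PTPRC the probe with the run stood at -0.83 and its other measured probe at -0.18. Further genes with such a run, SFN and EPHB3 among them, also have another measured probe, and these were not compared.

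Over the whole array, 19 of the 218 genes at least 2-fold higher (8.72%) had a measured probe with a CA run of 8 bases or more, against 61 of the 11620 measured genes (0.525%). SCARA3, picked on this contrast, is among the 19 and the 61. Without probes that hold a CA or TG run of 8 bases or more, the high-fertile array was 2-fold or more above the other in 198 genes and below it in 284. SCARA3 then had no measured value, and 0 of the remaining measured receptors, SCARA5 and SCARB1, passed 2-fold.

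The measured genes nearest to SCARA3 in their difference were FOXR1, a forkhead factor, at 1.76, KIAA1609 at 1.78 and DAGLA, which makes the endocannabinoid 2-arachidonoylglycerol, at 1.68. FOXR1 gave 411 and 152, KIAA1609 703 and 257, and DAGLA 101 and 39.5, high-fertile first. Their measured probes have CA runs of 3, 2 and 2 bases. Each rests on 1 measured probe. These genes were picked for the size of their difference, so nothing about SCARA3 or its repeat is read from them.

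Of the 10 protein-coding genes around SCARA3 in the order of the RefSeq table (assembly ARS-UCD2.0), 9 had a probe and only SCARA5 was measured. On one side lie CCDC25, ESCO2, PBK, SCARA5 and NUGGC, and on the other CLU, LOC132345923, TMEM215, NDUFB6 and TOPORS. CLU, the secreted chaperone clusterin that is abundant in the epididymis, had 3 of 4 probes above background on the high-fertile array only. Their bounds were 1.48-, 1.23- and 1.11-fold higher there, leaving out reading errors. Their high-fertile signals were dim, at 35.75, 29.75 and 28.17, beside 22.6 for the dimmest probe called above background on that array. Before scaling the third probe was brighter on the low-fertile array, at 31.97, so its bound rests on the scaling. In log2 the bounds were 0.56, 0.30 and 0.14, each smaller in size than the shift of -0.63 under spike-in scaling. PBK, a kinase of dividing and germ cells, was above background on the low-fertile array only, at least 1.58-fold higher there, and TOPORS in 1 of 3 probes on the high-fertile array only. No neighbour gave a measured 2-fold difference.

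The other scavenger receptors of a list chosen for this description numbered 26, of which 22 had a probe and 14 were measured. Of the 14, 9 were higher and 5 lower on the high-fertile array, and 0 were 2-fold different either way, beside 4.32% of all measured genes. Their median difference was 0.20, against 0.00 over all genes. SCARF2, of the same class as SCARF1, gave 173 and 122 (0.83) from 1 of 2 probes, and AGER, the receptor for glycated proteins, 77.6 and 62.6 (0.64). CD5L, a soluble macrophage protein, gave 31.0 and 77.2 (-0.99) from 1 of 2 probes.

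CD163L1, of the WC1 family of co-receptors on bovine gamma-delta T cells, was the most fully measured, with 6 of 6 probes. They gave 59.3 to 249 on the high-fertile array and 121 to 514 on the low-fertile one. Each of its 6 probes was lower on the high-fertile array, from -0.54 to -1.48, with a mean of -0.82 and an SD of 0.34 over probes. WC1 genes are near-identical copies, so these probes may read more than 1 gene.

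In the 5 related pathways described next, 0 measured genes were past 2-fold, beside 4.32% of all measured genes, and with so few genes in each nothing is read from that count. In lipoprotein and cholesterol handling, the setting of SCARB1 and CD36, 16 of 33 listed genes were measured, 6 higher and 10 lower, with a median of -0.07. SREBF2, the master regulator of cholesterol synthesis, stood at 0.51, the oxysterol receptor NR1H2 at 0.51, the lipoprotein receptor VLDLR at -0.66 and APOA1, the main protein of high-density lipoprotein, at -0.42. In the engulfment of dying cells, 8 of 26 genes were measured, 5 higher and 3 lower, with a median of 0.12. The phosphatidylserine binder ANXA5 stood at 0.77 and calreticulin (CALR), an eat-me signal, at 0.67. CD47, a don't-eat-me signal, stood at -0.92 and the integrin ITGB3 at -0.89. The CD47 value comes from 1 of 3 probes. Its high-fertile signal of 24.6 was close to the dimmest probe called above background on that array, at 22.6. SREBF2 (SD 0.26), APOA1 (SD 0.21) and CALR (SD 0.01) rest on 2 measured probes each and the others named here on 1.

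For iron and ferritin, the cargo of SCARA5, 10 of 19 genes were measured, 3 higher and 7 lower, with a median of -0.32. NCOA4, which delivers ferritin to the lysosome, stood at -0.69 (SD 0.30 over 3 probes) and the iron transporter SLC11A2 at -0.66 (SD 0.84 over 2 of 6 probes). Of the other SLC11A2 probes, 2 were above background on the high-fertile array only and 1 on the low-fertile array only. The ferrireductase STEAP3 stood at 0.14 (SD 0.23 over 2 probes) and ferritin heavy chain, FTH1, at 0.12 (SD 0.27 over 6 probes). Among lysosome genes, around SCARB2, 12 of 27 were measured, 6 higher and 6 lower, with a median of 0.03. The sphingolipid activator PSAP stood at -0.55, the protease CTSL at -0.32, and the hydrolases GUSB and ARSA at 0.35 and 0.27.

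In the oxidative stress response, for which SCARA3 is known, 14 of 28 genes were measured, 5 higher and 9 lower, with a median of -0.13. The sensor KEAP1 stood at 0.71 and the mitochondrial superoxide dismutase SOD2 at 0.55. The peroxidase GPX3 stood at -0.50 (SD 0.28 over 2 probes). The peroxidase PRDX6 stood at -0.92 from 1 of 5 probes, with a dim signal of 26.1 on the high-fertile array. Of its other probes, 1 was above background on the high-fertile array only and 1 on the low-fertile array only. Single-probe genes among these lists have no spread of their own.

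**Figure D4:**
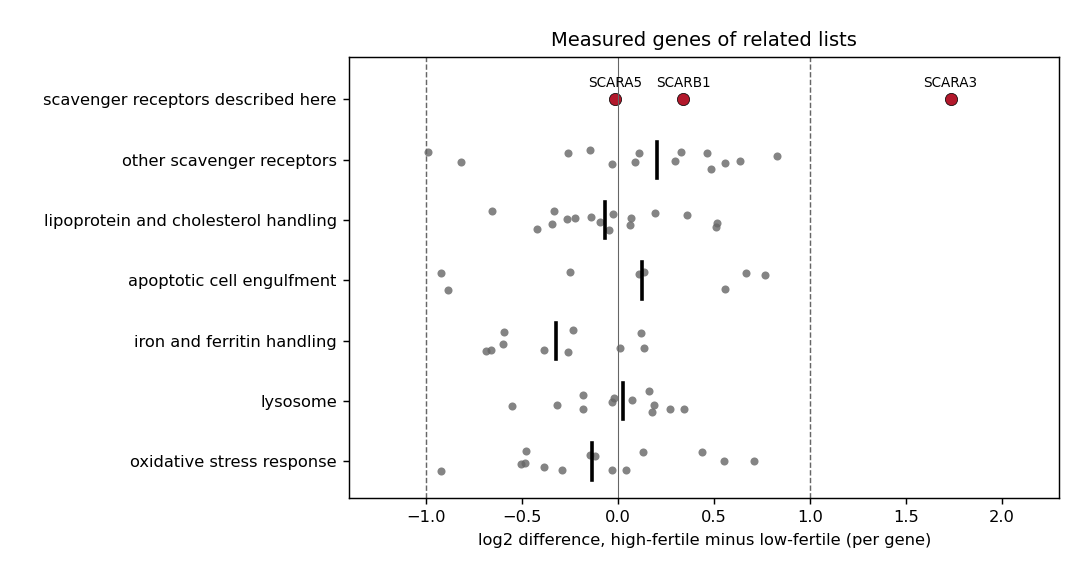
Log2 difference, high-fertile minus low-fertile, of the 3 measured scavenger receptors described here (red) and of the measured genes of 6 related lists (grey; black bars are medians; vertical scatter within a row is arbitrary); dashed lines mark 2-fold. SCARA3, at 1.73 from its repeat probe, is the only point past a dashed line.

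Marker genes of sperm and of other cells were looked up, which does not set the share of each cell type. Of 16 spermatid and sperm genes, 10 were measured, and PRM2, AKAP4, TSSK6, SPATA18, SMCP and SPEM1 were above background on neither array. Protamine 1 (PRM1) was 2-fold lower on the high-fertile array (-1.10, SD 0.28 over 2 probes), the transition protein TNP2 was 2-fold higher (1.22, 1 probe), and the median of the list was 0.01. Of 21 macrophage and other leukocyte genes, the cells that carry MSR1, MARCO and CD36, 12 were measured, 6 higher and 6 lower, from -0.51 to 0.61. PTPRC in that list has a probe with a long TG run. The brightest measured gene of that list was CD3D, at 4647 and 7439 from 1 of 3 probes, high-fertile first. In the spermatid and sperm list it was ODF1, at 319 and 338. Signals of different probes were not taken as amounts of RNA. The macrophage and monocyte genes CD68 (0.11), CD163 (0.33), CD14 (-0.15, SD 0.07 over 2 probes), TYROBP (-0.09) and LYZ (0.34, SD 0.88 over 2 probes) were among the measured ones. The leukocyte integrin gene ITGB2 stood at 0.61 (SD 0.51 over 4 of 6 probes). FCER1G was above background on the high-fertile array only, and ITGAM, AIF1 and MS4A1 on the low-fertile array only. CSF1R, CD3E and S100A9 were above background on neither array. Epithelial and testis somatic genes were also measured (6 of 11 and 11 of 19), with medians of 0.08 and -0.07. Of 7 endothelial genes, for the cells that carry COLEC12 and SCARF1, 3 were measured, with a median of -0.13, and KDR, TEK and EMCN were above background on neither array. Of 10 genes of earlier germ cells, 0 were measured. In such bulk RNA, fewer cells of a type and less RNA per cell cannot be told apart, and the part of other cells in the receptor signals was not tested.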

How the data were processed

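Total RNA of spermatozoa was primed with oligo-dT, labelled with Cy3 and hybridised to 1 array for each group, per the labels' protocols. The groups come from the fertility entry of the labels, and both arrays lay on one slide. The deposited scanner tables give the linear intensity of every spot. Agilent Feature Extraction 11.5.1.1, per the file headers, wrote them; it subtracted the background and removed the spatial trend within each array, and probe positions are on build HGSC Btau_3.1. The authors' deposited series matrix holds log2 values, which equalled the log2 processed signals plus a constant for each array (-5.12 and -5.55, within 0.01 for 98.6% of probes on each), with column medians of -1.43 and -1.37; why these constants were used is not given in the sources used here.

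Control spots, and spots flagged as outliers on an array, were dropped there (2 probes were lost), spots of a probe were averaged on the log2 scale, and a gene's value is the mean over its measured probes. The 75th percentile was taken over measured probes because only 27.6% of probes were above background on both arrays, under 50%. Probe names were updated through accessions (28110 probes), symbols (6484) and older symbols (153) of the RefSeq table, and 16533 kept the array's name. Receptor probes kept the array's name throughout. The receptors and lists were chosen with earlier results of these data known. Named from each list are up to 2 measured genes with the largest difference each way and any past 2-fold, as well as the 3 genes nearest to SCARA3 in difference and its 5 neighbours on each side. CA and TG runs were the longest stretches in which the 2 bases alternate, in either phase, read on the probe's own strand; a TG run is a CA run on the other strand. Python 3.11.15, numpy 2.4.6, pandas 2.3.3 and, for alternatives, limma 3.58.1 in R 4.3.3 were used, and the steps were tested on simulated data. The number of arrays limits the precision. Alternatives changed the background correction, normalization, scaling, filter, choice of probes, source of values and local surroundings, as given in the closing section.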

Additional observations from a re-analysis of the deposited data

How the results depend on the processing

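With 1 array per group nothing can be left out and no paired analysis was possible because each group has 1 array. The SCARA3 difference of 1.73 was 1.40 with loess, 1.40 with quantile normalization, 1.103 with scaling on 7 spike-in probes and 0.76 with no filter on dim probes, where its dim probes enter the mean; under the other alternatives it ran from 1.63 to 1.88. The count of receptors at least 2-fold higher, 1, was 0 with no filter and 0 without probes holding runs of 8 bases or more, an alternative added after seeing the data. SCARA5 stood at 0.35 with its brightest probe or the stricter filter and at -0.65 with spike-ins; SCARB1 stood at -0.19 against surrounding spots, -0.07 with no filter and -0.29 with spike-ins, and could not be measured with the stricter filter.

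Over all genes, 218 at least 2-fold higher and 284 lower became 787 and 1751 with no filter, 72 and 48 with normexp, 28 and 1971 with spike-ins, and 125 and 46 with the stricter filter; 363 were higher against surrounding spots. Higher calls made up 43.4% of calls, 59.2% with the 75th percentile over all probes, 59.6% with the matrix values, 61.6% against surrounding spots, 73.1% with the stricter filter, 31.0% with no filter and 1.40% with spike-ins. The median of all genes moved to -0.63 with spike-ins, to -0.12 with no filter, and to 0.10, 0.10 and 0.11 with the percentile over all probes, the matrix and surrounding spots. Probes with CA runs of 12 bases or more had a median of 1.103 (spike-ins) to 1.88 (surrounding spots), and every measured one was above 0 under each alternative that holds them; with spike-ins 7 of 11, and with normexp 10 of 11, were still 2-fold higher. The median for TG runs of 12 bases or more ran from -1.03 with spike-ins to -0.22 against surrounding spots. Receptors above background numbered 4 on the high-fertile array and 3 on the low-fertile one, and 5 and 4 where 1 flagged spot sufficed. Signal over background limits 13 of the 17 receptor probes, and 1 array per group limits all.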
